A study of Mus musculus with 8 samples.

Results

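The genes described here encode potassium channels (symbols starting with Kcn), sodium channels (Scn) and chloride channels and exchangers (Clcn). They were read in cultured mouse skeletal myotubes, the multinucleated cells that form when muscle precursors fuse. Members were taken by symbol among probe sets annotated with 1 gene. A gene was read on its brightest probe set by the mean over the 4 RNAs, on array type A where it had one and otherwise on type B. This gave 106 genes of 18194 in all, 82 read on type A and 24 on type B, and together they had 219 probe sets.

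Total RNA from 4 myotube preparations was hybridised to oligonucleotide arrays, 1 array of each of 2 types per RNA. The labels call 1 RNA wildtype and 1 truncated Egr3, Egr3 being a zinc-finger transcription factor induced by activity and growth signals. Whether wildtype describes the Egr3 protein or the culture is not stated, and neither is the origin of the truncated form. For RNA275 they give only an acclimatization treatment, and for RNA276 no treatment. No strain, age, dose or time is stated. With 1 RNA per label there was no replicate and no test across samples. Every comparison is therefore a difference between single RNAs, described by its size and by the count at least 2-fold apart.

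Muscle excitability rests on the balance of these proteins. Sodium channels carry the rising phase of the action potential, voltage-gated potassium channels repolarise the membrane, and inward rectifiers together with the chloride channel Clcn1 hold the resting potential. Myoblasts hyperpolarise through Kcnh1 and Kcnj2 currents before they fuse. Several proteins of the Clcn family are chloride/proton exchangers of endosomes and lysosomes and not channels of the cell surface.

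Signals are linear intensities in the deposited units, and all 8 arrays shared a mean of 150.0 after trimming 2% from each end. A floor was set at 67.6 on type A and 112.6 on type B, and a difference was called measured if either RNA exceeded it. A fold against an RNA under the floor is given as at least that size. Reading above the floor is not proof of expression. The only error available came from 100 probe sets that the array types share. The SD of a single log2 difference was 0.174 for wildtype minus truncated Egr3 and 0.150 for RNA276 minus RNA275. These SDs leave out an offset between the types. The type A minus the type B difference averaged 0.14 in the first comparison and -0.05 in the second. Those probe sets are bright, with a median signal at percentile 86.2 of type A and 98.4 of type B. The error of dimmer probe sets was not measured, and variation between cultures is not in these values. The same 100 probe sets read a median of 3.95 to 4.77 times brighter on type B than on type A, so no level is set across types or between probe sets. The labelled cell type held in the data, since 12 of 12 myotube markers (Myog, Des, Ckm, Acta1, Myh3 and others) lay above the floor in all 4 RNAs and none differed 2-fold in either comparison. Their summed signal was 22008 to 25320. Fibroblast markers (4 of 6) and smooth muscle markers (3 of 5) were also above the floor, so the purity of the cultures is not shown.

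Channel genes lay near or under the floor far more often than other genes. Above the floor in at least 1 RNA were 34 of 106 members (32.1%), against 61.3% of all genes. In all 4 RNAs the count was 12 members (11.3%), against 46.3%. Among members read on type A, 20 of 82 (24.4%) passed, against 61.5% of type A genes, and on type B 14 of 24 (58.3%), against 60.8%. Counted by probe set, 65 of the 219 (29.7%) passed, against 57% of all, with 20.7% against 57.3% on type A and 40.8% against 56.5% on type B. On the probe set each gene was read on, only 2 members, Clcn5 and Kcnq1ot1, exceeded 4 times the floor (1.89%), against 24.3% of all genes. Some members read on type A had much brighter type B probe sets. Among them, Kcnj11 reached 3263 in RNA275 and Scn7a 1263 in truncated Egr3. The members' median type A signal was 28.0 in wildtype, 20.3 in truncated Egr3, 28.0 in RNA275 and 20.3 in RNA276. The type A gene median was 78.1 to 86.1 over the same arrays. On type B the gap was smaller, with member medians of 85.4, 63.7, 108 and 92.8 in that order against gene medians of 115, 105, 123 and 128.

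**Figure D1:**
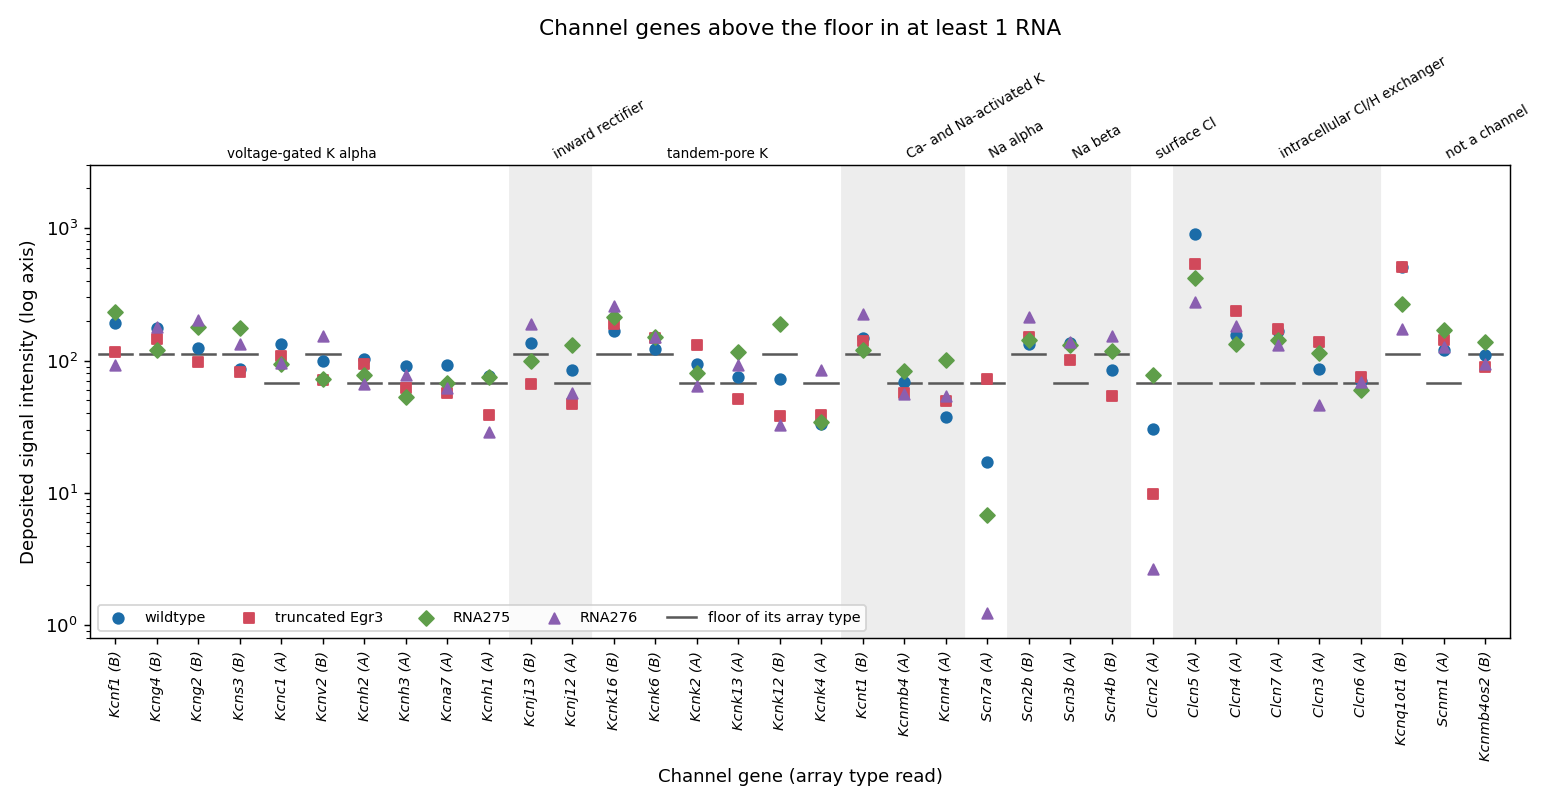
Signal of the 34 channel genes above the floor in at least 1 RNA, grouped by class (deposited intensity, log axis), with 1 point for each of the 4 RNAs and a short line at the floor of the gene's array type. Most points sit within a few-fold of the floor. Only Clcn5 (279 to 899) and Kcnq1ot1 (173 to 510) reach more than 4 times the floor in their highest RNA. Heights of different genes are not comparable as amounts of RNA.

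Among the sodium channel pore-forming subunits, Scn7a was the only gene above the floor in any RNA, so spans cannot be ranked among them. Its type A probe set, the one the rule takes, read 17.2 in wildtype, 72.5 in truncated Egr3, 6.78 in RNA275 and 1.23 in RNA276, so only truncated Egr3 was above the floor. Both of its type B probe sets were bright, and they were examined after their values were seen. Probe set 1436043_at read 593 in wildtype, 1263 in truncated Egr3, 224 in RNA275 and 91.4 in RNA276. Probe set 1436044_at read 326, 900, 180 and 177 in the same order. All 3 probe sets were highest in truncated Egr3, and on both of type B wildtype was second and RNA275 and RNA276 were low. Truncated Egr3 exceeded wildtype 2.13-fold on the first type B probe set (log2 difference of wildtype minus truncated -1.09) and 2.76-fold on the second (-1.46). After quantile normalization these differences were -0.98 and -1.42, so the first fell just short of 2-fold. From lowest to highest RNA the span was at least 11.2-fold on the first and 5.07-fold on the second. Scn7a encodes an atypical family member (Nax) known as a sensor of sodium level, and it is found in glia and Schwann cells among other cells. Of the Schwann cell and glia markers, 2 of 5 on the arrays (Sox10 and Pmp22) were above the floor, and Mbp, S100b and Gfap were below it in every RNA. Their summed signal was lowest in truncated Egr3 (563, 486, 1011 and 633, in the order wildtype, truncated Egr3, RNA275, RNA276). Pmp22 made up most of that sum, at 433, 320, 824 and 490, and Gfap (39.1) and S100b (13.1) were highest in truncated Egr3, though below the floor. One fibroblast marker, Dcn, was also higher in truncated Egr3, at 157, 317, 257 and 202 in that order. Col1a1, Col1a2 and Col3a1 were less than 2-fold apart, and the part of Schwann cell, glial or fibroblast content in the Scn7a values was not tested. Loss or gain of a cell type and a change per cell cannot be told apart in these RNAs.

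Promoters of the members were searched for letters that Egr proteins are known to bind, since the labelled comparison concerns Egr3. RefSeq promoters (GRCm38.p6, 250 bases before to 50 after a start, 300 in all) were found for 82 of the 106 genes, 113 promoters in total. The Egr consensus GCGNGGGCG, searched on both strands, was in 5 of 113 (4.42%), against 1824 of 32851 promoters of all genes (5.55%). The share in members was thus no higher than in promoters at large. The 5 were promoters of Kcna4, Kcnk2, Kcnt2, Scn7a and Scn8a, and of these genes Scn7a and Kcnk2 were above the floor in at least 1 RNA. The E-box CANNTG, the letters bound by myogenic factors such as Myod1, was in 76.1% of member promoters and in 72.3% of all. For Scn7a and Kcnk2, the bases upstream of the start follow with the Egr match in capitals. The Scn7a window is chr2:66784911-66785160, minus strand. Its match begins 125 bases before the start and is read on the opposite strand of the promoter. The Kcnk2 window is chr1:189343354-189343603, minus strand, for 1 of the starts listed for that gene, and its match begins 167 bases before the start on the promoter's own strand. A match is a description of letters and not of binding.
Scn7a: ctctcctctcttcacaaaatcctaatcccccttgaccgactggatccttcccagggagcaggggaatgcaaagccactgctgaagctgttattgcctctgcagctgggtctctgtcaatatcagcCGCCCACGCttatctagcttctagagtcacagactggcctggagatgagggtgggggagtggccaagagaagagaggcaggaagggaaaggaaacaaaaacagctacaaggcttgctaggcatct
Kcnk2: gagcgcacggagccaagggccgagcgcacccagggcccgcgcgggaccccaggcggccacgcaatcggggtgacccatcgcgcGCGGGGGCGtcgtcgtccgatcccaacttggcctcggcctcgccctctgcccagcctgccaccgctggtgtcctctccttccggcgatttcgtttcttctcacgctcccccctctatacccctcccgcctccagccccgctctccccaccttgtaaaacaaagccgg

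Apart from Scn7a, the 7 other pore-forming sodium channel genes on the arrays (Scn1a, Scn2a, Scn3a, Scn8a, Scn9a, Scn10a and Scn11a) were below the floor in all 4 RNAs. The beta subunits, which set gating and membrane placement of the pore, were above the floor in 3 of 3 genes among the members. Scn2b read 133 in wildtype, 151 in truncated Egr3, 143 in RNA275 and 213 in RNA276, and another probe set gave 142, 120, 138 and 179. RNA276 was the highest on both, and wildtype and truncated Egr3 changed places. Scn3b read 135, 101, 131 and 137, above the floor in all 4 with truncated Egr3 lowest, and the log2 difference of wildtype minus truncated was 0.42 against that technical SD of 0.174. Scn4b read 84.7, 54.4, 118 and 152, above the floor in RNA275 and RNA276 and below it in the other two. The 3 epithelial sodium channel subunits (Scnn1a, Scnn1b and Scnn1g), which absorb sodium in kidney and lung, were below the floor throughout.

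All 5 intracellular chloride/proton exchangers (Clcn3 to Clcn7) were above the floor in at least 1 RNA, and 3 of them in all 4. Clcn5, the endosomal exchanger whose loss causes Dent disease, read 899 in wildtype, 537 in truncated Egr3, 420 in RNA275 and 279 in RNA276. These RNAs span 3.23-fold, with wildtype 0.74 above truncated Egr3 in log2 and RNA276 0.59 below RNA275. The array maker's name of that probe set (1420295_x_at) marks it for possible cross-hybridisation, and its 3 other probe sets gave smaller spans. Probe set 1429400_at read 449, 304, 267 and 318 in the same order, with wildtype again highest, but RNA276 above RNA275 by 0.25 in log2. Probe set 1450787_at read 93.7, 105, 78.6 and 89.7, and 1441831_x_at on type B read 362, 315, 268 and 259. So 3 of the 4 probe sets had wildtype highest, and the 2-fold span rests on 1 of them.

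Clcn3, which serves endosomes and synaptic vesicles, was higher in truncated Egr3 on its brightest probe set. That probe set, another _x_at, read 86.2 in wildtype, 138 in truncated Egr3, 114 in RNA275 and 46.4 in RNA276. The log2 difference of wildtype minus truncated was -0.68, and the 4 RNAs spanned at least 2.04-fold. Its type B probe set read 112, 131, 17.3 and 8.64, with truncated Egr3 again highest and RNA276 again lowest. Of the 5 Clcn3 probe sets, 4 were above the floor in at least 1 RNA, and truncated Egr3 was the highest on each of these. Without the probe sets named _x_at, the members spanning 2-fold numbered 2 in place of 4, Clcn5 and Clcn3 being lost. Clcn4, also endosomal, read 156, 236, 133 and 181, higher in truncated Egr3 by 0.60 in log2. Its other probe set read 103, 87.5, 80.5 and 74.4, with wildtype higher, so these probe sets disagree on direction. Clcn7, the lysosomal exchanger needed for bone resorption, read 168, 173, 144 and 132 on type A and 359, 402, 401 and 388 on type B. Clcn6, of late endosomes, read 291, 312, 223 and 234 on type B, so that wildtype and truncated Egr3 lay above RNA275 and RNA276.

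Of the surface chloride channels, Clcn1, which carries most of the resting conductance of adult muscle fibres and is mutated in myotonia, was below the floor in all 4 RNAs (5.42 to 8.32). Clcn2, a widely expressed hyperpolarisation-activated channel, read 30.2, 9.80, 78.1 and 2.64, above the floor in RNA275 alone.

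Voltage-gated potassium channel alpha subunits formed the most numerous class, with 10 of 31 genes above the floor in at least 1 RNA and 2 in all 4. Members of the Kcnf, Kcng, Kcns and Kcnv groups, electrically silent subunits that modify Kcnb channels, accounted for 5 of the 10. All 5 were read on type B, where 58.3% of members passed the floor. The other 5 were read on type A, where 24.4% passed. Channel group and array type cannot be told apart in this count. Kcnf1 read 194 in wildtype, 117 in truncated Egr3, 232 in RNA275 and 92.1 in RNA276. It was the only member at least 2-fold apart between RNA276 and RNA275 on the rule's probe sets, lower in RNA276 by at least 2.06-fold, and wildtype exceeded truncated Egr3 by 0.73 in log2. Its other probe set, 88.1, 67.6, 124 and 33.2, kept that order of RNAs, mostly below the floor. Kcng4 read 175, 145, 121 and 180, Kcng2 read 125, 97.2, 179 and 203, and Kcns3 read 86.0, 81.7, 176 and 133. Truncated Egr3 was below wildtype for Kcng4 and Kcng2. Kcns3 was under the floor in both of these RNAs and gives no direction there. No gap of the 3 reached 2-fold on the floored scale. Kcnv2 was above the floor in RNA276 alone, at 155 against 71.7 to 99.0 elsewhere.

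The Kcnh genes encode the Eag, Erg and Elk channels. Kcnh1 (Eag1) read 77.1 in wildtype, 38.7 in truncated Egr3, 74.5 in RNA275 and 29.0 in RNA276 on type A. On type B, examined after its values were seen, it read 244, 138, 459 and 219, above the floor in all 4. Both probe sets had wildtype above truncated Egr3 and RNA275 above RNA276. On type B the gap of wildtype over truncated was 0.82 in log2, RNA276 was 2.09-fold below RNA275, and the 4 RNAs spanned 3.33-fold. Kcnh2 (Erg1), the cardiac repolarising channel, read 103, 94.1, 77.2 and 66.4. Kcnh3 (Elk2) read 90.6, 61.6, 53.1 and 78.3 on type A, and 517, 538, 694 and 898 on its brightest type B probe set, where RNA276 was highest. Another type B probe set, named _x_at, read 538, 460, 693 and 623, with RNA275 highest. Kcnc1 (Kv3.1), a fast repolarising channel, was above the floor in all 4 RNAs on both types, at 133, 109, 93.9 and 95.4 on type A and 116, 124, 121 and 142 on type B. Wildtype was higher than truncated Egr3 on type A (0.29 in log2) and lower on type B (-0.09), beside an offset of 0.14 between the types. Kcna7, a Kv1 channel of skeletal muscle and heart, read 93.0, 57.3, 67.8 and 61.9, and wildtype was the highest.

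Several Kv genes were bright on type B and dark on type A. Kcnd1 (Kv4.1, an A-type channel) read 20.8 to 29.7 on type A. Its type B probe sets read 421, 461, 334 and 358, and 298, 232, 349 and 428, and they gave opposite orders of wildtype and truncated Egr3, with RNA276 above RNA275 on both. Kcna1 (Kv1.1) read 8.90 to 31.5 on type A. Its brightest type B probe set read 202, 136, 154 and 372, 2.41-fold higher in RNA276 than in RNA275. Another read 149, 70.9, 190 and 122, lower in RNA276, so the direction of Kcna1 in that comparison is not settled. The remaining type B probe set was below the floor in all 4 RNAs, at 4.93 to 81.8. Kcns2 read 200, 155, 310 and 243 on type B, with truncated Egr3 lowest. Kcnc4, Kcna5 and Kcnq5, which are known in muscle, were below the floor on the rule's probe sets, at 8.69 to 9.53, 2.20 to 11.1 and 6.35 to 17.5. None of the 12 accessory subunit genes (Kcnab, Kcne and Kcnip) was above the floor on the rule's probe set, Kcne3 included at 1.56 to 6.34. Kcnip2, a calcium-binding partner of Kv4 channels, was above it on type B in RNA275 alone, at 441 against 92.0 in wildtype, 36.1 in truncated Egr3 and 34.6 in RNA276. RNA275 exceeded RNA276 at least 3.91-fold on that probe set. RNA275 was also the RNA with the highest sums of neuron, Schwann cell and glia, cardiac and epithelial markers. The neuron sum was 387 against 259 to 274, with 1 of 10 markers (Nefm) above the floor in RNA275. The Schwann cell and glia sum was 1011 against 486 to 633. The cardiac sum was 170 against 94.0 to 127, with only Nppb above the floor, and the epithelial sum was 397 against 129 to 191. Krt18 gave 238 of the epithelial sum in RNA275, and Epcam and Cdh1 were below the floor in every RNA. The other lists were not highest in RNA275. Smooth muscle and endothelial sums were highest in wildtype, and myotube, fibroblast and macrophage sums in RNA276. The part of other cell types in the Kcnip2, Kcnf1 and Kcnh1 values was not tested.

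**Figure D2:**
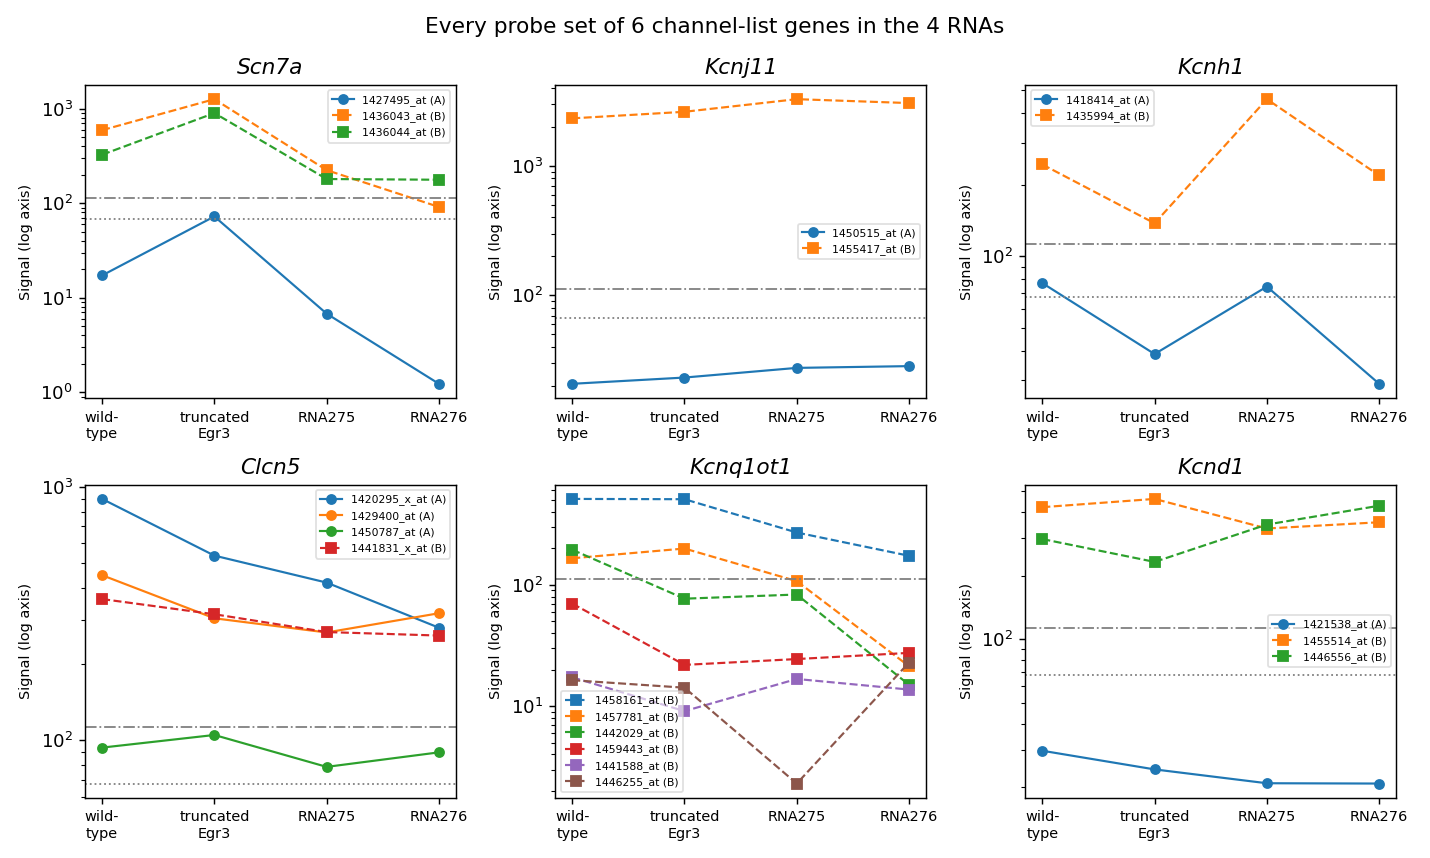
Every probe set of 6 channel genes over the 4 RNAs (deposited intensity, log axis), with solid circles for type A, dashed squares for type B, a dotted line at the type A floor and a dash-dot line at the type B floor. Lines join the values of 1 probe set only. The 3 Scn7a probe sets are all highest in truncated Egr3, Kcnj11 is far below the floor on type A and at 2320 to 3263 on type B, and the Kcnd1 probe sets cross.

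Inward rectifiers pass potassium near the resting potential. Kcnj11, the pore (Kir6.2) of the ATP-sensitive channel that couples muscle metabolism to excitability, read 20.8 in wildtype, 23.3 in truncated Egr3, 27.6 in RNA275 and 28.5 in RNA276 on type A. Its type B probe set read 2320, 2608, 3263 and 3044, above 99.5% of the probe sets on that array type. On type B both comparisons were small, -0.17 in log2 for wildtype minus truncated Egr3 and -0.10 for RNA276 minus RNA275, the first about the size of its technical SD of 0.174 and the second below its 0.150. Abcc8 and Abcc9, its sulfonylurea receptor partners, were below the floor in all 4 RNAs on the 1 type A probe set read for each. Any type B probe sets of these partners were not read. Kcnj2 (Kir2.1), the rectifier of myoblast fusion, read 1.10 to 1.90 and was below the floor throughout. Kcnj12 (Kir2.2) read 84.7, 46.6, 130 and 56.7, above the floor in wildtype and RNA275 only, and RNA276 lay at least 0.95 below RNA275 in log2. Kcnj13 (Kir7.1), an epithelial rectifier, read 137, 67.0, 98.7 and 189. In all, 13 of the 15 inward rectifier genes were below the floor on the rule's probe set in all 4 RNAs.

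Tandem-pore channels carry background potassium current. Of their 12 genes, 6 were above the floor in at least 1 RNA. Kcnk6 (Twik2) read 122 in wildtype, 148 in truncated Egr3, 150 in RNA275 and 150 in RNA276, and Kcnk16 (Talk1, known in pancreas) read 166, 189, 214 and 258. In both, wildtype was the lowest. Kcnk2 (Trek1), a channel opened by stretch and lipids, read 93.5, 131, 81.1 and 64.0, with truncated Egr3 highest by 0.48 in log2 over wildtype. Kcnk13 read 75.5, 51.2, 116 and 92.4, and Kcnk12 read 72.4, 37.9, 188 and 32.4 and was above the floor in RNA275 alone. Kcnk4 (Traak) was above the floor only in RNA276, at 84.6. Kcnk5 was below the floor at 18.4 to 33.3. On type B, Kcnk10 (Trek2) read 157, 119, 187 and 221, above the floor in all 4, where type A gave 1.87 to 10.5.

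Of the calcium- and sodium-activated potassium channel genes, 3 of 11 were above the floor. Kcnt1 (Slack), opened by internal sodium, read 148, 140, 120 and 226. Wildtype and truncated Egr3 differed by 0.08, less than the technical SD, and RNA276 exceeded RNA275 by 0.91 in log2. Kcnn4, the intermediate-conductance channel of proliferating cells, read 37.4, 49.5, 101 and 54.3, with RNA275 alone above the floor. Kcnmb4, an auxiliary subunit of the large-conductance channel, read 68.4, 57.4, 84.0 and 56.0, and its wildtype value lay just above the floor of 67.6. Kcnma1, the pore of that channel, read 37.7 to 59.99, all below the floor. Kcnn3 (SK3), which innervation represses in muscle, read 7.09 to 11.1.

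The symbol rule also took 4 genes that encode no channel. Kcnq1ot1, the imprinted noncoding RNA antisense to Kcnq1, read 510 in wildtype, 507 in truncated Egr3, 269 in RNA275 and 173 in RNA276. Wildtype and truncated Egr3 were level (0.01 in log2), both above RNA275 and RNA276, and the span was 2.94-fold. Of its other probe sets above the floor, 1 read 165, 199, 107 and 21.3 and 1 read 194, 76.8, 83.1 and 15.0, so RNA276 was lowest on all 3 while the order of wildtype and truncated Egr3 varied. Scnm1, a splicing factor named for modifying Scn8a, read 120, 142, 171 and 127. Kcnmb4os2, a noncoding transcript opposite Kcnmb4, read 111, 89.7, 139 and 93.5.

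In the comparison of wildtype with truncated Egr3, none of 26 measured members was 2-fold apart on the rule's probe sets in either direction. Over all 10308 genes measured, 1.13% were at least 2-fold higher in wildtype and 0.534% at least 2-fold lower. A count of 0 in 26 is near this background. On the floored scale, a gene with no signal above 2 times the floor cannot be 2-fold apart, here or in the later counts. Only 10 of 106 members (9.43%) exceeded 2 times the floor in any RNA, against 43% of all genes. The count therefore says little about most members. The median member difference was 0.10 in log2 (16 above 0 and 10 below, from -0.68 for Clcn3 to 0.74 for Clcn5), and the all-gene median was 0.00. The member median of 0.10 was smaller than the offset of 0.14 between the array types. The median size without sign was 0.26 for members and 0.20 for all genes. With the brightest probe set over both types, Scn7a was the 1 member of 31 (3.23%) at least 2-fold lower in wildtype, against 0.642% of all genes, and 0 were higher, against 1.12%. Among other measured probe sets of the members, 13 of 19 had the sign of the rule's probe set.

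Between RNA276 and RNA275, the members 2-fold or more higher in RNA276 were 0 of 33, against 2.43% of 10618 genes, and 1 of 33 (3.03%, Kcnf1) was at least 2-fold lower, against 5.09%. The median member difference was -0.13, with 15 above 0 and 18 below, and that of all genes was 0.03. Of these 33 differences, 17 were lower bounds. With the brightest probe set over both types, the lower calls were 3 of 43 (6.98%: Kcnf1, Kcnh1 and Kcnip2), against 5.58% of all genes, and the higher call was 1 (2.33%, Kcna1), against 2.53%. The sign was shared in 8 of 12 other measured probe sets.

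Over the 4 RNAs together, 4 of 34 members above the floor (11.8%) spanned at least 2-fold, namely Clcn5, Kcnq1ot1, Clcn3 and Kcnf1, against 14.8% of all genes. The share of members was near that background, but the floor sets it in part. The highest RNA lay at 1 to 2 times the floor in 24 of the 34 members and 3324 of the 11155 genes. There no gene can span 2-fold on the floored scale. With the highest RNA at 2 to 4 times the floor, 2 of 8 members (25%) spanned 2-fold, against 22.4% of genes. Above 4 times the floor it was 2 of 2 members, against 20% of genes. RNA276 was lowest in all 4 members that spanned 2-fold, and in 43% of the 1650 genes that did. The highest RNA was wildtype in 7 of the 34 members (20.6%), truncated Egr3 in 6 (17.6%), RNA275 in 10 (29.4%) and RNA276 in 11 (32.4%). Over all genes the corresponding shares were 17.7%, 24%, 25.9% and 32.4%.

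**Figure D3:**
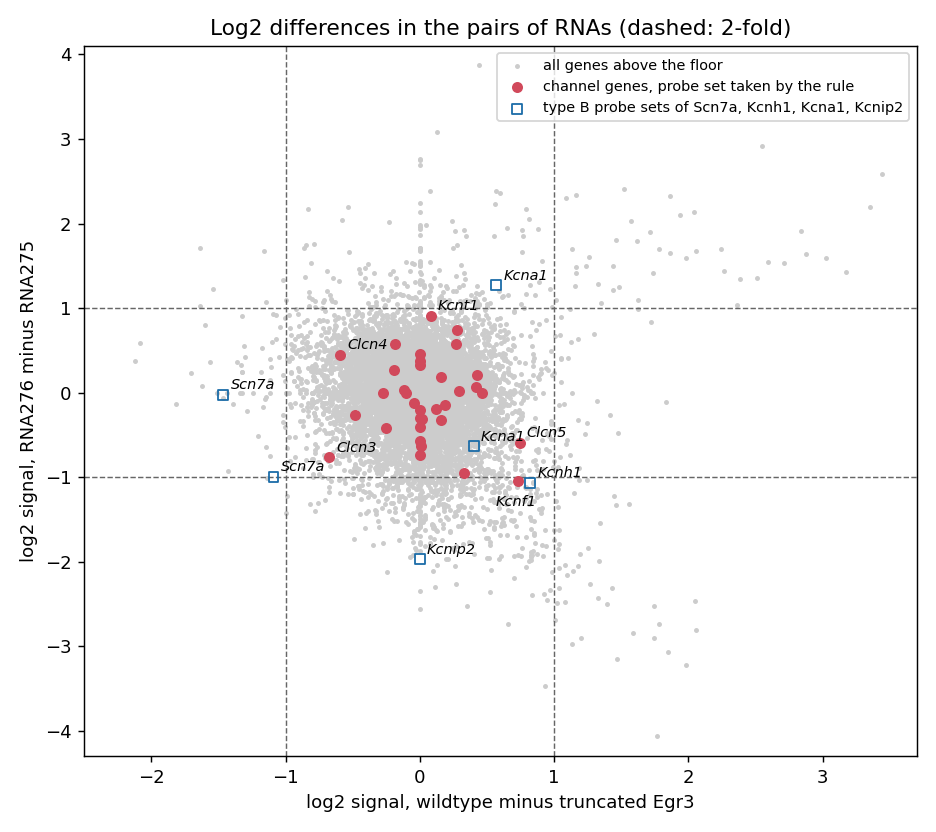
Log2 difference of wildtype minus truncated Egr3 (horizontal) against RNA276 minus RNA275 (vertical) on the floored scale, with all genes in grey, channel genes in red, and type B probe sets of Scn7a, Kcnh1, Kcna1 and Kcnip2 as open blue squares. Dashed lines mark 2-fold. The red points lie between -0.68 and 0.74 on the horizontal axis, and the Scn7a squares (-1.09 and -1.46) lie beyond the left line.

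Of the 33 channel genes present on both types, 8 were above the floor on both, 9 on type B and not on type A (Kcnj11, Kcnd1, Kcna1, Kcna2, Kcna6, Kcnd3, Kcnip2, Kcnk10 and Kcns2), and 1 on type A and not on type B (Kcnk13). This split was not counted over all genes, so it is not a result about channel genes. The probe sets that the types share also read brighter on type B. Taking the brightest probe set over both types raised the genes above the floor from 34 to 43 (40.6%), against 65% of all genes read that way. Of the 43, 8 (18.6%) spanned at least 2-fold, against 15.7%. The other 63 genes had no probe set above the floor on either type. Low type A readings of these 9 genes therefore do not settle whether myotubes express them.

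**Figure D4:**
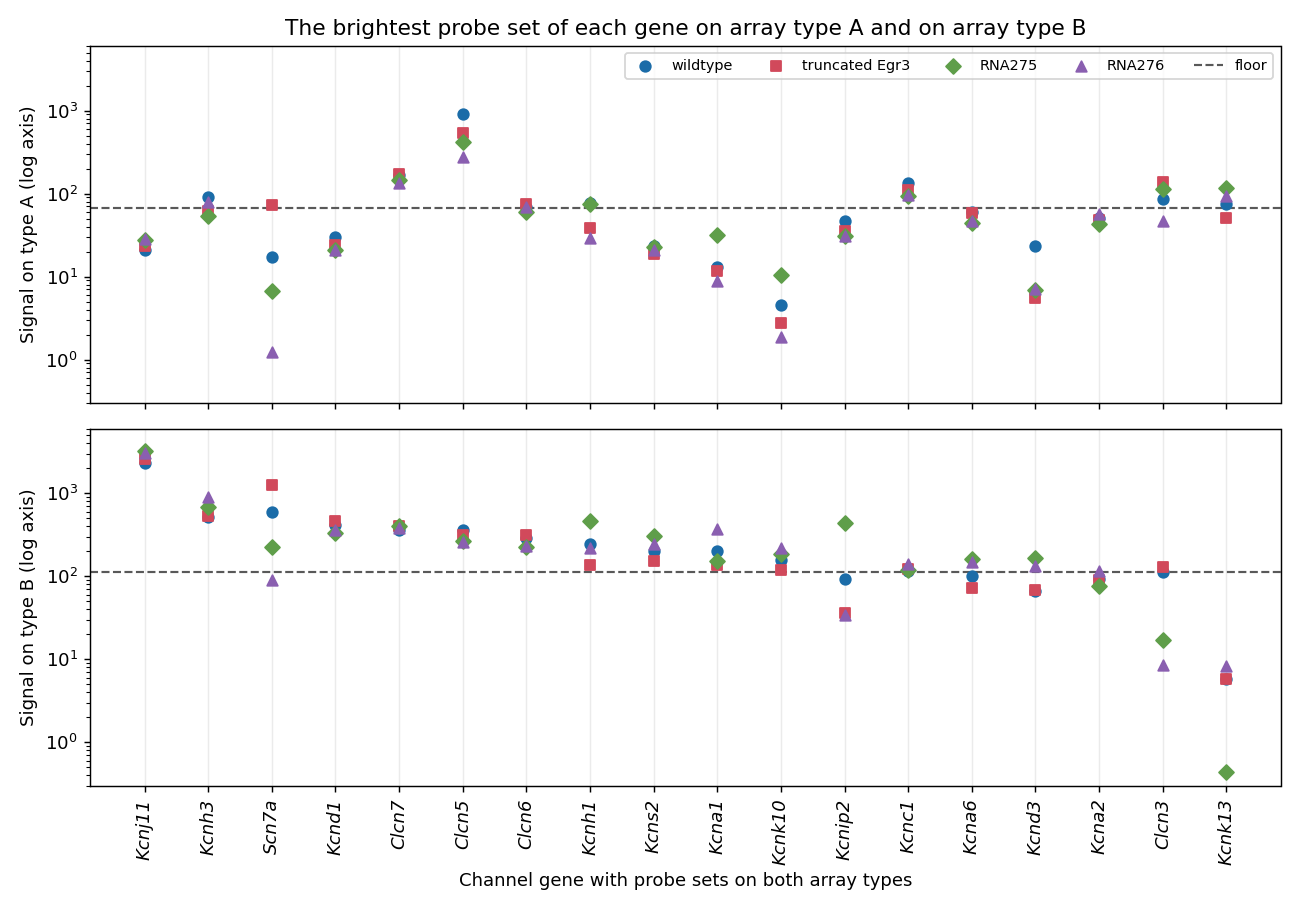
The 18 channel genes present on both array types and above the floor on at least 1, with the 4 RNAs on type A and on type B (deposited intensity, log axis) and dashed lines at the floors. For 9 genes, Kcnj11 among them, type A lies below its floor and type B above it.

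Genes that work beside these channels were read from lists of related families. Their counts above the floor stand beside 61.3% of all genes, and their 2-fold counts for RNA276 against RNA275 beside 2.43% higher and 5.09% lower among all genes measured. Of the sodium pump and its Fxyd regulators, 7 of 12 genes on the arrays were above the floor, none 2-fold apart in either comparison, with median log2 differences of 0.08 for wildtype minus truncated Egr3 and 0.05 for RNA276 minus RNA275. Atp1b3, a beta subunit of the pump, read 722 in wildtype, 539 in truncated Egr3, 692 in RNA275 and 977 in RNA276. Of the chloride channels and cotransporters outside Clcn, 14 of 21 were above the floor, none 2-fold apart between wildtype and truncated Egr3 and 2 of 14 lower in RNA276 than in RNA275. These were Slc12a2, which loads cells with chloride, at 573, 440, 584 and 228 (2.56-fold lower in RNA276), and Slc12a5, a potassium/chloride exporter known in neurons, at 115, 52.3, 241 and 47.3 (at least 3.57-fold lower). Ano6, a scramblase and channel, read 1628, 1726, 1653 and 829. The medians of the list were 0.15 and 0.05.

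Among calcium channel subunits, 9 of 24 were above the floor and none was 2-fold apart in either comparison, with medians of 0.01 and -0.21. Cacna1s, the voltage sensor of excitation-contraction coupling, read 257, 319, 232 and 190, and its partner Cacng1 read 414, 381, 281 and 502. Of other cation channels, 7 of 16 were above the floor. Piezo2, a stretch-activated channel of sensory endings, was at least 2.05-fold higher in RNA276 than in RNA275, at 163, 174, 99.0 and 230, and the list's medians were -0.21 and 0.15. Of channel anchors and regulators, 12 of 18 were above the floor. Ank1, which ties the sarcoplasmic reticulum to the contractile apparatus, read 431, 463, 304 and 889, 2.92-fold higher in RNA276 than in RNA275, and the medians were -0.06 and -0.09. In none of the 5 lists was a gene 2-fold apart between wildtype and truncated Egr3, where 1.66% of all measured genes were.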

How the data were processed

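The deposited values are linear intensities of single probe sets. How they were scaled, and with which software, is not given in the sources used here. Groups came from the labels, and type A and B arrays of 1 RNA were not treated as replicates. Symbols came from the platform annotation, and probe sets with several genes or none were not named. Before the log2, a floor was applied, taken from the labelled pair of arrays together as their 50th percentile on type A and their 60th on type B. The members and lists were chosen with earlier results of these data known. Named genes were the 12 brightest members, those spanning 2-fold, a list of muscle channels, and other measured members by class. The brightest type B probe sets of Scn7a, Kcnh1, Kcna1 and Kcnip2 were added after seeing the data. The counting was tested on simulated data. Alternatives were 3 scalings (quantile normalization, equal medians, loess with span 0.3), 4 floors, other probe set choices and other fold thresholds. A planned search of channel proteins for the pore signature was not run. The number of arrays limits the precision. Python 3.11.15, numpy 2.4.6, pandas 2.3.3, statsmodels 0.14.6 and matplotlib 3.10.9 were used. The smooth muscle list had 3 of 5 markers above the floor (summed signal 4451 to 6147), the fibroblast list 4 of 6 (6943 to 8382), the macrophage list 1 of 6 (286 to 311) and the endothelial list 1 of 4 (93.8 to 140).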

Additional observations from a re-analysis of the deposited data

How the results depend on the processing

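There were 12 alternatives, and those at 1.5-fold and 3-fold changed only the counts. Of 368 values of named genes recomputed under the others, 327 stayed within the technical SD and 41 moved by more. The sign turned in 10, all of values not called at 2-fold, and 3 of these moved by more than the technical SD. Those were RNA276 minus RNA275 of Clcn5 (-0.59, to 0.06 with the median over probe sets and 0.25 without those named _x_at) and wildtype minus truncated of Scn2b (-0.18, to 0.15 with the median). The counts, each followed by the share of all genes called in the same way, depended mainly on the floor, the probe set and the threshold. The count of members at least 2-fold lower in RNA276 than in RNA275 was 1 as reported (5.09%). It was 2 after quantile normalization (4.71%), with equal medians (4.78%), with loess (5.07%) and with the floor over all 4 arrays (5.17%). With the lower floor it was 4 (5.81%), with 12 of 49 members spanning 2-fold (16.9%) in place of 4 of 34 (14.8%). With the higher floor 21 members were above it (51.5%) in place of 34 (61.3%), 0 were lower in RNA276 (4.17%) and 2 spanned 2-fold (13%). With no floor, of 106 members 14 were higher (6.65%) and 5 lower (3.33%) in wildtype than in truncated Egr3, 4 were higher (6.05%) and 22 lower (10.3%) in RNA276, and 55 spanned 2-fold (33.2%), and no count above the floor exists. With the median over probe sets, 0 were lower in RNA276 (4.42%) and 0 spanned 2-fold (13.5%). With the brightest probe set over both types, 1 was lower in wildtype (0.642%), 1 higher (2.53%) and 3 lower (5.58%) in RNA276, and 8 spanned 2-fold (15.7%). At 1.5-fold, 2 were higher (4.59%) and 2 lower (4.7%) in wildtype, 2 higher (9.65%) and 6 lower (12.8%) in RNA276, and 16 spanned that fold (44.9%). At 3-fold 0 were lower in RNA276 (1.25%) and 1 spanned it (3.49%). Leaving out probe sets named _x_at, chosen after seeing the data, left 2 spanning 2-fold (14.9%). With 1 RNA per label no replicate could be left out, and variation between cultures cannot be estimated. Low signal over background limits what can be said of the members near the floor.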
